A study of Homo sapiens with 8 samples.

Results

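The stable distal regions were the H3K27ac regions that both MIA PaCa-2 lines shared at a similar strength and away from gene ends. They were chosen on the measured values. Peaks of both lines were merged where they shared at least 1 bp, a region needed peaks of both lines, and no part of it could lie near either end of a RefSeq gene of any type (GRCh38), meaning 2 kb beyond the end or 1 kb within the gene. Its percentile rank, which places the region's highest signal among all regions with a peak of that line, had to differ by under 20 points between the lines. Of 18678 merged regions, 9477 were shared, 2177 of these were distal and 1193 were kept, which is 6.39% of all regions and 54.8% of the shared distal regions.

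MIA PaCa-2 is an established line from a human pancreatic carcinoma. Both lines carried lentiMPHv2 and lentiSAMv2, the parts of a CRISPR activation system, with an sgRNA to *HDAC1* in MP2_HDAC1_OE and a non-targeting sgRNA in MP2_NTC. *HDAC1* encodes a histone deacetylase. Neither the number of clones behind a line nor a passage is given in the sources used here. Each line had 2 H3K27ac samples and 2 control samples made without an antibody, and the authors deposited 1 list of reproducible peaks per line. With 1 pooled list per line there are no replicate values, the read depth is unknown, and no difference between the lines could be tested. The intervals below cover counting error only.

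H3K27ac, the acetylation of lysine 27 of histone H3, is placed by acetyltransferases such as EP300 and removed by deacetylases such as HDAC1. It marks active promoters and active enhancers, which are distal elements that bind transcription factors and raise the transcription of genes on the same chromosome, often across other genes. A distal H3K27ac region is therefore a candidate enhancer until its effect on a gene is measured, and the nearest gene need not be its target.

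The markers of the labelled cell type were only partly present. Of all protein-coding genes, 36.9% had a gene end with peaks of both lines. Such an end was found for 7 of 17 epithelial and ductal genes (41.2%, 21.6 to 64.0), which is near that share, among them *KRT8*, *KRT18* and *KRT19*, the keratins of simple epithelia, and *CLDN4*, a tight junction gene. The listed spans of *KRT8* and *KRT18* overlap, so 1 peak can mark an end of both. No such end was found for *CDH1*, *EPCAM* or *KRT7*. Of 21 EMT and mesenchymal genes, 6 had one (28.6%, 13.8 to 50), among them *ZEB1*, *VIM* and *CD44*, and 12 had peaks of neither line. The counts were 0 of 16 acinar and endocrine genes, 0 of 16 hepatocyte, neural and muscle genes and 2 of 14 immune genes, *SPI1* and *FCGR3A*.

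The kept regions ranged from weak to strong H3K27ac. In MP2_HDAC1_OE the highest peak of a region had a median signal of 53.4 (range 11.3 to 170), and in MP2_NTC 56.8 (range 12.8 to 198). These are the authors' values, and since no source says how they were scaled, only ranks are compared. The rank was higher in MP2_HDAC1_OE for 624 regions and higher in MP2_NTC for 569, and 373 differed by under 5 points. Both ranks were above 90 in 69 regions and below 10 in 33. A limit of 20 points kept 59.1% of all shared regions, so a stable rank was common among shared regions at gene ends as well (4405 regions). These counts describe the selection.

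**Figure D1:**
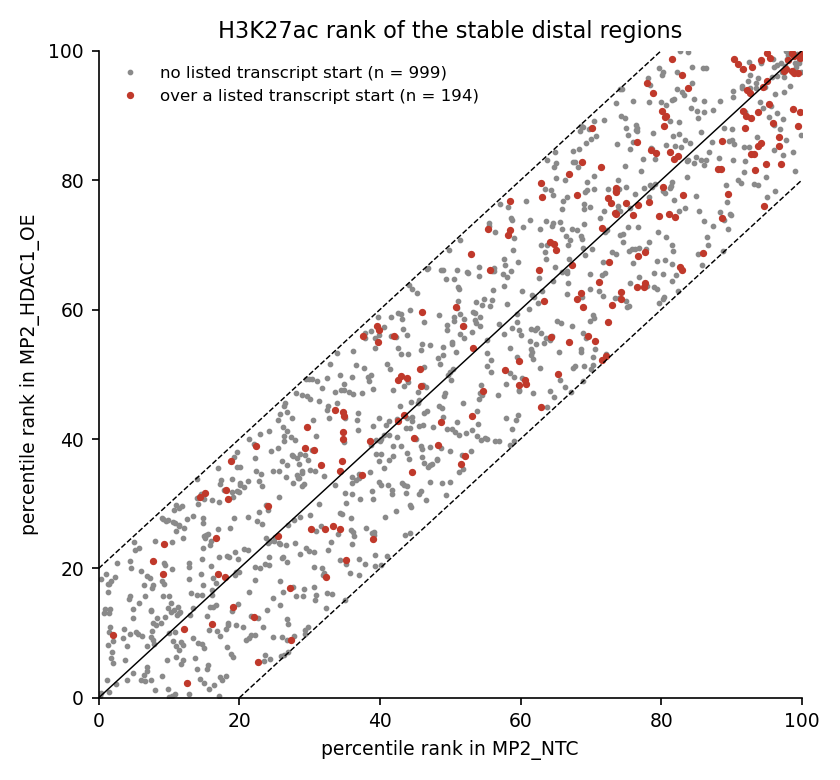
Percentile rank of the highest H3K27ac signal in MP2_NTC (horizontal) against MP2_HDAC1_OE (vertical), 1 point per stable distal region. Dashed lines mark the limit of 20 points that selected the regions, and the 194 red points, which overlap a listed transcript start, lie more densely toward high ranks.

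Regions on either side of the limit had nearly the same values. Just inside it were chr7:157690116-157691156 in *PTPRN2*, chr19:11639607-11640701 near *ZNF627* and chr2:100291507-100292574 in *LONRF2*, with differences of 19.88, 19.96 and 19.97 points. Just outside it were chr5:43019639-43020907 near *ANXA2R*, chr19:17079536-17080355 in *MYO9B* and chr8:79783434-79784311 near *HEY1*, with 20.05, 20.05 and 20.07 points. All 6 ranked higher in MP2_NTC.

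The 10 strongest regions, by the lower of both ranks, lay above rank 98 in both lines and 5 of them covered a listed transcript start. Gene ends mark only the outermost start of a gene, whereas the table of RefSeq promoter windows (250 bases before to 50 after a start, GRCh38.p14) also lists starts inside genes. One of these windows overlapped 194 of the 1193 regions (16.3%, 14.3 to 18.5), at starts of 186 genes, and 192 of the 194 regions lay inside a protein-coding gene. These regions are distal by the ends of genes and not by the starts of transcripts, so the name candidate enhancer was kept for the other 999. The table of windows is not complete, and some of these may cover a start that it lacks.

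For 101 regions a whole window lay inside the region, so their own sequence is known. Below are the 250 bases before the start for the strongest 4 of these, and for the strongest that holds the AP-1 letters, which was picked after its values were seen. They are shown because the strongest regions called distal carry promoter sequence. Each runs 5′ to 3′ on the strand of its gene. Capitals mark matches on either strand to GGGCGG (SP and KLF factors), CCAAT (NFY) or TGANTCA (AP-1).
ACYP2 (chr2:54115365-54115614, plus strand): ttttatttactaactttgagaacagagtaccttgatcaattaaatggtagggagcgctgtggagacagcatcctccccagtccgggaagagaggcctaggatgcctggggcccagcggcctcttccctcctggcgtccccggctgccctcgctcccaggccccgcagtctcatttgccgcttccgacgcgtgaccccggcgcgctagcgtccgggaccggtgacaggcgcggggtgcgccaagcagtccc
ZNF688 (chr16:30571715-30571964, minus strand): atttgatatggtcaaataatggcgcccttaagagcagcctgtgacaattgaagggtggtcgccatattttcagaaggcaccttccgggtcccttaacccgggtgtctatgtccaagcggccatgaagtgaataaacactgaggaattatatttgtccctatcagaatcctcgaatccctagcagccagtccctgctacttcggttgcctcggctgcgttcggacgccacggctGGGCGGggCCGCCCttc
DYNC2I2 (chr9:128656848-128657097, minus strand): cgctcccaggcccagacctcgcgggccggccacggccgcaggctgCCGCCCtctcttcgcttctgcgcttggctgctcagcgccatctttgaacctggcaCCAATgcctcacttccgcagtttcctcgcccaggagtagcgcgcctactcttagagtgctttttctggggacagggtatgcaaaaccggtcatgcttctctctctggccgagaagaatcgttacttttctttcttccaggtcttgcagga
TNIP1 (chr5:151081035-151081284, minus strand): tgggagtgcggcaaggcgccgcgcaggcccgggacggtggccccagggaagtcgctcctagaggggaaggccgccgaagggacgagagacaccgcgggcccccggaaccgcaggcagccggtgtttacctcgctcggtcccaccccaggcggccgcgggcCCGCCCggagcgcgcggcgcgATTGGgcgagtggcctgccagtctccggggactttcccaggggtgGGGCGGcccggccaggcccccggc
ETFBKMT (chr12:31659438-31659687, plus strand): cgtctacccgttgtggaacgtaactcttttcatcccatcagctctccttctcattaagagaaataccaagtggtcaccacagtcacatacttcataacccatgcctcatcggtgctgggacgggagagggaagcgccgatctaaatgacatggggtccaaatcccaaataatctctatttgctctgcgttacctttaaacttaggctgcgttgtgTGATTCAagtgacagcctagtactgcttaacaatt

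The strongest region of all was chr2:54115346-54115987, inside *ACYP2*, an acylphosphatase gene. Its signal was 142 in MP2_HDAC1_OE (rank 99.6) and 185 in MP2_NTC (rank 99.9), and the internal start lay 100 bp from the midpoint of the summits, the highest points of the peaks. It was 137 kb from the nearest end of a protein-coding gene, and the 250 bases before the start hold none of the 3 motifs.

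At *ZNF688*, a zinc finger gene, the region chr16:30571124-30572061 had a signal of 133 (rank 99.2) and 148 (rank 98.9), and the start fell on the midpoint of the summits. The *DYNC2I2* region (chr9:128656699-128657291), in a gene for an intermediate chain of the cilium's dynein-2, reached 126 (rank 98.8) and 174 (rank 99.8). *TNIP1* encodes an inhibitor of NF-κB signalling. Its region (chr5:151080555-151081759) reached 147 (rank 99.7) and 142 (rank 98.6), with the start 153 bp from the summits. The 250 bases before this start have a GC content of 77.6%, the highest of the 5 printed, and hold 2 SP and KLF matches and 1 NFY match.

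The fifth strong region over a start was chr16:75148394-75148971 in the zinc finger gene *ZFP1*, at ranks 99.6 and 98.6. At *ETFBKMT*, which encodes a methyltransferase of the electron transfer flavoprotein, the region chr12:31659298-31660525 lay at ranks 93.5 and 78.8 and the bases before its start have a GC content of 46.0%.

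The other 5 of the strongest 10 covered no listed start. In order they were chr3:129626815-129628127 (ranks 99.4 and 99.4), 20.5 kb from *TMCC1*, chr8:60651611-60652388 (99.1 and 99.8), 26.9 kb from the chromatin remodeller gene *CHD7*, and chr14:100213944-100215275 (98.4 and 99.6), 24.8 kb from *YY1*. *YY1* encodes a zinc finger transcription factor. Next were chr3:128680764-128681777 (98.1 and 99.1), 30.4 kb from *RPN1*, a subunit of the oligosaccharyltransferase of the endoplasmic reticulum, and chr19:42075018-42075912 (99.4 and 98.1) inside *ZNF574*. The *YY1* region lies in the transcribed span of the noncoding *YY1-DT*. The nearest genes *TMCC1*, *YY1* and *RPN1* also had peaks of both lines at an end, *CHD7* had a peak of MP2_HDAC1_OE alone and *ZNF574* had none.

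Windows over the stable distal regions were rich in G and C, as were those at marked gene ends. Their median GC content was 68.2% (190 windows, since 4 were shared by neighbouring regions), against 65.3% for 4635 windows over the stable regions at gene ends and 58.7% for all 34943 windows. GGGCGG was found on either strand in 75.3% (68.7 to 80.9) of the windows over stable distal regions, 71.4% of those at stable gene ends and 44.9% of all. CCAAT was found in 33.2%, 33.6% and 34.6%.

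The AP-1 letters TGANTCA were in 14 windows (7.37%, 4.44 to 12.0), against 3.75% (3.24 to 4.34) of windows at stable gene ends and 7.72% of all windows. The palindromic CRE, TGACGTCA, was in 1 window (0.526%, 0.0930 to 2.92), against 3.67% (3.16 to 4.25) at stable gene ends and 1.84% of all. The TEAD letters GGAATG were in 7.37% (4.44 to 12.0), against 10.5% at stable gene ends and 14% of all windows. A match is a description of these letters only. GC content differed between the sets beside these shares, and its part in them was not tested.

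Regions over a listed start were stronger, and fewer of them lay near H3K27ac that a single line carried. Their median ranks were 67.2 and 69.9 in MP2_HDAC1_OE and MP2_NTC, against 46.8 and 45.9 for the 999 others, which is given as a description because the selection used ranks. An H3K27ac region found only in MP2_HDAC1_OE lay nearby, within about 13 kb (25 kb divided by 2, here and below), of 22.7% (17.3 to 29.1) of the regions over a start and of 53.2% (50.1 to 56.2) of the others. For regions found only in MP2_NTC the shares were 18.0% (13.3 to 24.1) and 40.6% (37.6 to 43.7). Over all shared regions the 2 shares were 29.0% and 24.2%, and over stable regions at gene ends 21.5% and 19.3%, near those of the regions over a start. Regions over a start lay in a protein-coding gene at 99.0% and the others at 45.0%. The selection largely fixed this, since it left out gene ends and so kept only starts inside genes. The part of rank and position in the contrast of nearby unshared regions was not tested.

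Internal starts were more common among shared distal regions than among unshared ones. A listed start was overlapped by 13.7% (11.7 to 16.0) of the 984 shared distal regions whose rank moved by 20 points or more, here called shifted. It was overlapped by 4.28% (3.58 to 5.10) of the 2735 distal regions found only in MP2_HDAC1_OE and by 6.09% (5.06 to 7.32) of the 1724 found only in MP2_NTC. Stable and shifted distal regions had overlapping intervals. Regions found in a single list were also weaker, with median ranks of 22.2 in MP2_HDAC1_OE and 19.3 in MP2_NTC, and the part of signal strength in this contrast was not tested.

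**Figure D2:**
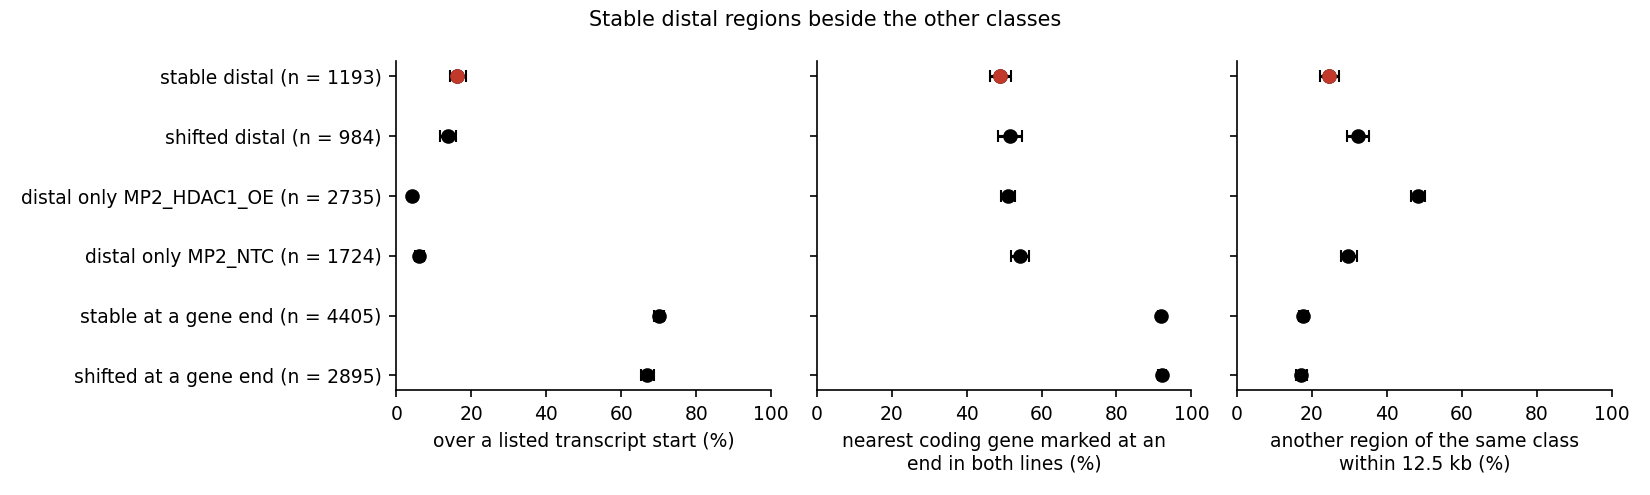
Shares of each class of H3K27ac region (rows) that overlap a listed transcript start (left), whose nearest protein-coding gene has peaks of both lines at an end (middle) and that have another region of their class within about 13 kb (right), in percent with 95% Wilson intervals. The stable distal regions, in red, sit at 16.3%, 49.0% and 24.6%.

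Strong and weak stable distal regions differed in how exactly the lines placed the peak and in where the region lay. In 4 equal groups by the lower of both ranks, the median distance between the lines' summits was 244 bp (95% interval 206 to 294) in the weakest group and 119, 70.5 and 49.5 bp (41.0 to 56.0) in the groups above it. The median distance to the nearest end of a protein-coding gene went from 25.4 kb (20.2 to 34.9) to 13.0 kb (11.5 to 16.0). A listed start was overlapped by 7.36% (4.91 to 10.9) of the weakest group and by 27.5% (22.8 to 32.8) of the strongest. Weak regions were also the ones more often built from a single peak per line, at 44.8% against 7.05%.

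Unshared H3K27ac lay near weak regions more often than near strong ones. A region found only in MP2_HDAC1_OE lay within about 13 kb of 61.2% (55.6 to 66.6) of the weakest group and 43.0% (37.5 to 48.6) of the strongest, and for regions found only in MP2_NTC the shares were 43.5% and 28.5%. The share inside protein-coding genes changed less, from 50.2% (44.5 to 55.8) to 55.4% (49.7 to 60.9).

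**Figure D3:**
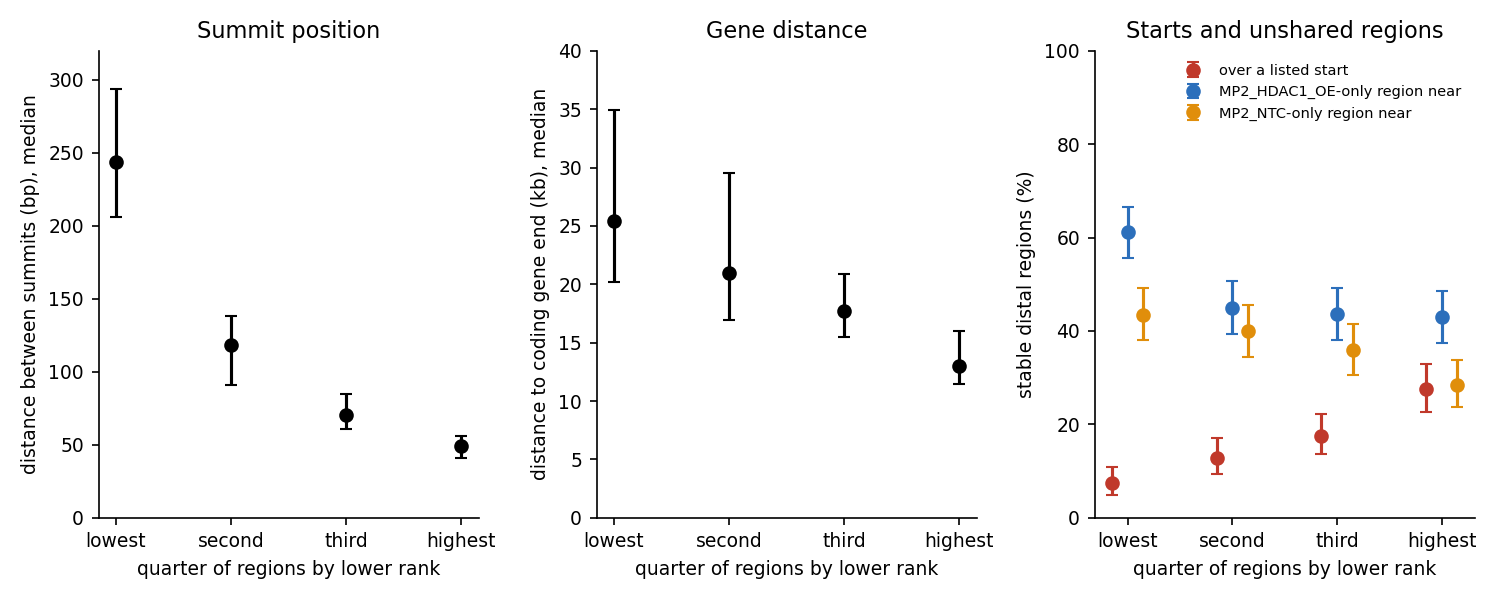
Stable distal regions in 4 equal groups by the lower of their ranks (horizontal), with the median distance between summits in bp (left), the median distance to a protein-coding gene end in kb (middle) and the percent that overlap a listed start or have an unshared region within about 13 kb (right), all with 95% intervals. From the weakest to the strongest group summit distance fell from 244 to 49.5 bp while starts rose from 7.36% to 27.5%.

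Over all stable distal regions the summits of the lines were a median of 93.0 bp apart (83.0 to 106). The median was 140 bp (117 to 157) in shifted distal regions, 53.0 bp (51.0 to 56.0) in stable regions at gene ends and 75 bp (71.0 to 80) in shifted regions at gene ends. The summits lay within 50 bp of each other in 33.8% of stable distal regions and over 500 bp apart in 12.7%, so in some regions the lines' highest peaks are different peaks of one merged stretch. Where each line had a single peak the medians were 88.5 bp (68.0 to 113) for stable and 96.5 bp (70.0 to 119) for shifted distal regions, with overlapping intervals.

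Of the stable distal regions, 642 (53.8%, 51.0 to 56.6) lay in a protein-coding gene, 135 in a gene of another type only and 416 (34.9%) in no gene. The share in protein-coding genes was 49.2% (46.1 to 52.3) for shifted distal regions, 54.5% for distal regions of MP2_HDAC1_OE alone and 63.3% (61.0 to 65.6) for those of MP2_NTC alone. Host genes were long, with a median of 74.3 kb against 24.1 kb for all protein-coding genes, and longer genes offer more room for a region. Among 535 regions in a host gene of listed strand, 45.0% lay in the section nearest the start and 21.1% in the section nearest the end, of 3 equal sections. For shifted distal regions these shares were 45.1% and 22.6%. Outside protein-coding genes, 231 regions lay upstream and 191 downstream of a nearest gene of listed strand.

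The median distance to an end of a protein-coding gene was 18.6 kb (16.8 to 20.1), with 33.2% of regions within 10 kb and 17.3% beyond 100 kb. It was 22.0 kb (19.7 to 24.7) for shifted distal regions, 24.1 kb (22.4 to 26.3) for those of MP2_HDAC1_OE alone and 18.6 kb for those of MP2_NTC alone. The nearest protein-coding gene carried peaks of both lines at an end for 585 regions (49.0%, 46.2 to 51.9) and peaks of neither for 441 (37.0%). All protein-coding genes carried both at 36.9%, but that is a share of genes and not of regions. Peaks of both lines were found in this way for 51.6% (48.5 to 54.7) of shifted distal regions. The shares were 51.0% (49.1 to 52.8) for distal regions of MP2_HDAC1_OE alone and 54.2% (51.9 to 56.6) for those of MP2_NTC alone. The share of the stable distal regions was the lowest of these classes. Its interval overlapped those of shifted distal regions and of distal regions of MP2_HDAC1_OE alone.

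H3K27ac found in a single line lay near many of the stable distal regions. An H3K27ac region found only in MP2_HDAC1_OE lay within about 13 kb of 575 of them (48.2%, 45.4 to 51.0), a region found only in MP2_NTC near 441 (37.0%, 34.3 to 39.7), and 498 (41.7%, 39.0 to 44.6) had neither. Shifted distal regions had neither at 33.2% (30.4 to 36.2), and stable regions at gene ends at 66.4% (65.0 to 67.8). Another stable distal region lay within about 13 kb of 294 (24.6%, 22.3 to 27.2), which formed 120 stretches, and the other 899 stood alone. Of these stretches, 36 held 3 or more regions and 13 held 4 or more.

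The longest run, 6 regions, lay inside *TPRG1* on chromosome 3 (chr3:189295000-189314687). *TPRG1* is named for its regulation by p63, the transcription factor of basal epithelium that its neighbour *TP63* encodes. By the lower of both ranks the strongest region of the run was chr3:189313576-189314687. It had a signal of 115 in MP2_HDAC1_OE (rank 97.4) and 92.2 in MP2_NTC (rank 86.3). The region chr3:189305006-189306327 was higher in MP2_HDAC1_OE, at 149 (rank 99.7), and lower in MP2_NTC, at 88.2 (rank 83.8). The other 4 ranged from rank 56.2 to 83.0 in MP2_HDAC1_OE and from 51.3 to 81.5 in MP2_NTC. MP2_HDAC1_OE ranked higher in 5 of the 6, against 52.3% of all stable distal regions. The selection used these ranks and the stretch was picked for its size, so no difference between the lines is read from this count.

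The wider area around this run was singled out after its values were seen. *TPRG1* was the nearest protein-coding gene of 17 stable distal regions, 10 of them inside it. From the start of *TPRG1* to the end of *P3H2*, which encodes a prolyl 3-hydroxylase of collagen, 1125 kb held 106 H3K27ac regions. Of these 24 were stable distal, 24 shifted distal, 38 found only in MP2_HDAC1_OE and 18 only in MP2_NTC. Over the whole genome 14814 regions had a peak of MP2_HDAC1_OE and 13341 a peak of MP2_NTC, and 9477 were shared. Regions found only in MP2_HDAC1_OE thus also outnumbered those only in MP2_NTC there, as they did among distal regions alone (2735 against 1724). Counts of unshared regions at single loci, here and below, can include regions at gene ends and are to be read beside these totals. *TP63* lies between these genes. It held 2 of the stable distal regions, and neither of its ends had a peak of either line, whereas *TPRG1* had peaks of both at an end. Near *P3H2* was the widest of the 9 stretches of 4 regions (chr3:189935222-189950276), whose regions ran from rank 5.89 to 78.9 in MP2_HDAC1_OE and from 3.75 to 88.3 in MP2_NTC.

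The *BCAR3* stretch held no weak region. *BCAR3* encodes an adaptor that binds BCAR1 (p130Cas) in integrin signalling. Its 5 regions (chr1:93802418-93815706) lay at ranks 55.4, 84.9, 85.1, 79.8 and 83.8 in MP2_HDAC1_OE, in genome order, and at 55.2, 75.5, 82.8, 81.5 and 97.3 in MP2_NTC. A run of 4 more regions in the gene (chr1:93772557-93782749) reached ranks 99.9 and 97.8, and 2 of these overlap a listed start of *BCAR3*. Together they make 9 stable distal regions in 43.1 kb, of 15 regions there, beside 1 shifted, 3 found only in MP2_HDAC1_OE and 2 only in MP2_NTC.

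*RAD51B* encodes a protein of homologous recombination. The 5 regions of its stretch (chr14:68465719-68479195) held both ends of the scale, from ranks 4.20 and 6.90 at chr14:68465719-68466813 to 93.1 and 83.3 at chr14:68476687-68477647. Both lines put the same region lowest and the same region highest. The selection kept only regions of similar rank in both lines, so no agreement between the lines is read from this order. Around the 8 stable distal regions of the gene lay 17 regions found only in MP2_HDAC1_OE and 3 found only in MP2_NTC. This locus was named after its values were seen, and the excess over the genome-wide counts was not tested.

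The remaining stretch (chr5:57816387-57846008) lay at least 334326 bp from its nearest protein-coding gene, the actin gene *ACTBL2*, which had no peak of either line at an end. Its 5 regions ran from rank 20.2 to 85.7 in MP2_HDAC1_OE and from 30.7 to 84.1 in MP2_NTC. The strongest was chr5:57837926-57839454, with signals of 83.8 and 88.5.

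**Figure D4:**
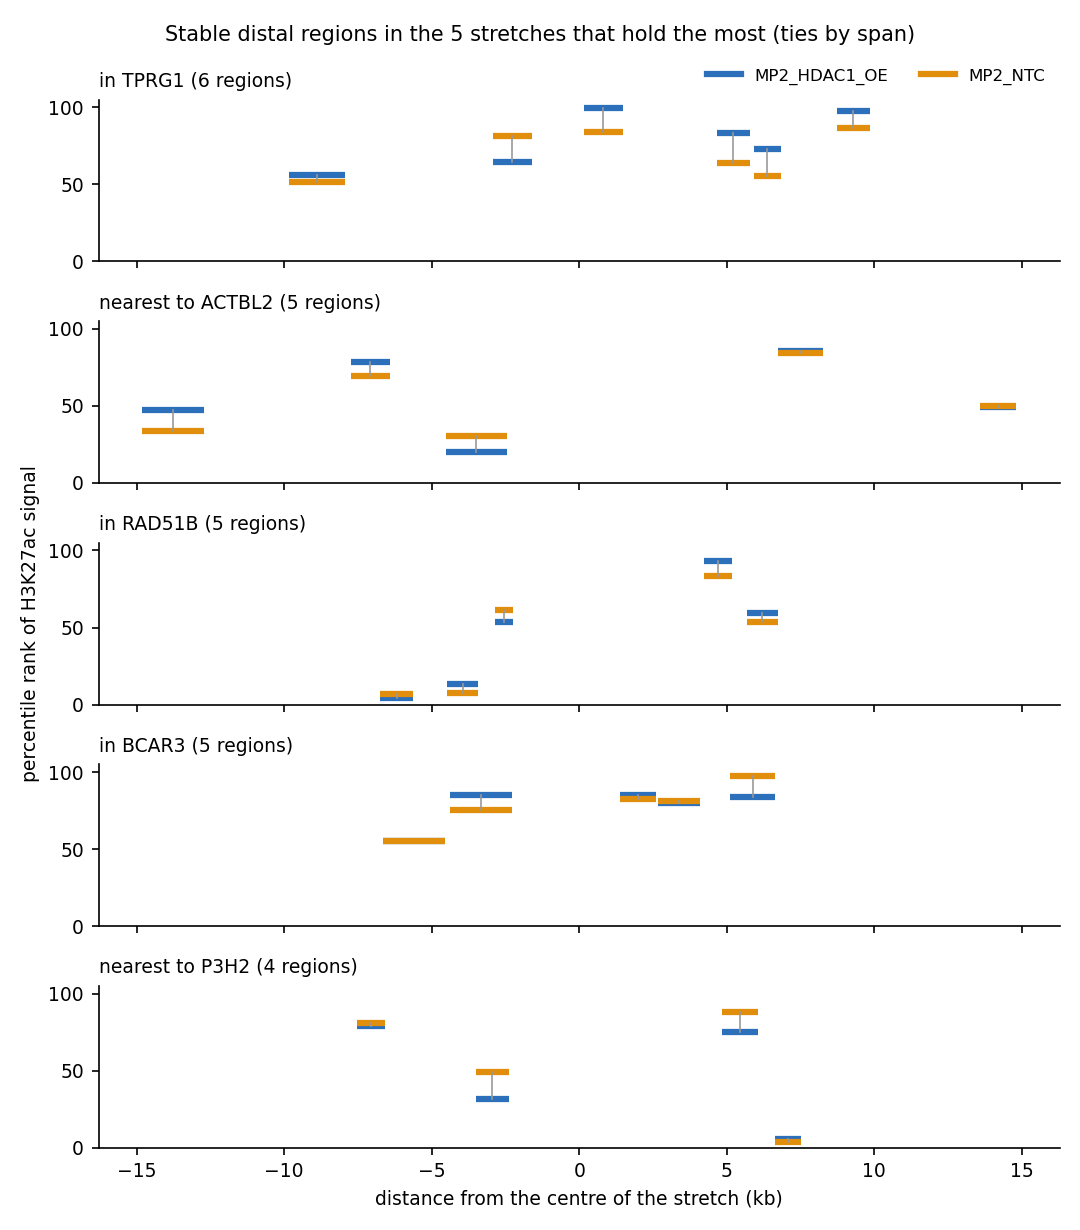
Ranks of the stable distal regions in the 4 stretches that hold 5 or more and in the widest of the 9 that hold 4, with distance from the centre of the stretch in kb (horizontal) and percentile rank of the H3K27ac signal (vertical), MP2_HDAC1_OE in blue and MP2_NTC in orange, bars to scale. In the TPRG1 stretch 5 of 6 regions ranked higher in MP2_HDAC1_OE, against 52.3% of all stable distal regions, and the RAD51B stretch ran from rank 4.20 to 93.1 in that line.

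Most nearest genes had a single stable distal region, and a few had many. The 1193 regions had 871 nearest protein-coding genes, of which 719 were nearest to a single region and 21 to 5 or more. The following were named after their counts were seen. *NUDT12*, which encodes a hydrolase of NAD-capped RNA, and the kinase gene *PLK2* each had 13. The *NUDT12* regions all lay 240 to 608 kb from the gene, at median ranks of 40.8 and 53.7. The *PLK2* regions spread over 439 kb up to the gene, at median ranks of 28.2 and 39.4. Within regions, the median of the MP2_HDAC1_OE rank less the MP2_NTC rank was 6.83 points for *NUDT12* and -1.02 points for *PLK2*. No difference between the lines is therefore read from the median ranks of either gene. *NXPH2*, a neurexophilin gene with no peak of either line at an end, had 8, all 145 to 256 kb away.

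*MYC*, the transcription factor gene of cell growth, was nearest to 9 stable distal regions, all outside the gene and 17.6 to 425 kb from it. Their ranks ran from 5.89 to 76.3 in MP2_HDAC1_OE and from 9.75 to 69.9 in MP2_NTC. The same 409 kb held 20 regions found only in MP2_HDAC1_OE, 11 found only in MP2_NTC and 5 shifted regions. Within 100 kb of the gene lay 2 of the 9, the stronger at chr8:127809905-127810945 with ranks 65.4 and 69.9. *MYC* itself had peaks of both lines at an end.

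A stable distal region lay within 100 kb of 2936 of 20056 protein-coding genes (14.6%). The share was 19.8% (18.9 to 20.7) of genes with peaks of both lines at an end and 10.3% (9.76 to 10.9) of genes with peaks of neither. Genes are not independent here, since neighbours share regions. A region counted for a gene can be nearest to another gene, which is named below for some of them. The lists below were chosen with earlier results of these data known, and none is called different from all genes.

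The AP-1 factors had the highest share of the lists given here. Of 14 AP-1 factor genes 5 had a region (35.7%, 16.3 to 61.2), and 7 of the 14 had peaks of both lines at an end. *FOSB* had 3, the strongest at chr19:45423891-45424543, 43.7 kb away and nearest to *ERCC1*, at ranks 91.0 and 98.7, but that region covers a listed start of *ERCC1*. *JUNB* also had 3, at 13.0 kb or more, and 2 of them cover a listed start of another gene. *ATF3* had 1, chr1:212558506-212559386, 6.60 kb from the gene, with signals of 91.8 and 104 and ranks of 90.6 and 91.9, although neither of its ends had a peak of either line. *JUND* had 1, 55.3 kb away, which covers a listed start of *PDE4C*.

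Of 24 genes of YAP, TEAD and their targets 6 had a region (25%, 12.0 to 44.9). *AXL*, a receptor tyrosine kinase gene, had chr19:41264312-41265067 at ranks 90.5 and 93.8, 3.01 kb from its end, but the region covers a listed start of its neighbour *HNRNPUL1*. *WWTR1*, which encodes the coactivator TAZ, had 2, the stronger by rank inside it at 24.8 and 23.8, and within 100 kb were 13 regions found only in MP2_HDAC1_OE, 5 found only in MP2_NTC and 2 shifted regions. The Hippo pathway gene *NF2* had 1 inside it at ranks 14 and 11.3, and *CRIM1* had 1 at 9.37 and 24.7.

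Of 21 EMT and mesenchymal genes 5 had a region (23.8%, 10.6 to 45.1). *VIM*, the intermediate filament vimentin, had 1 at ranks 30.2 and 17.1, 21.5 kb away and nearest to *TRDMT1*. *LOXL2*, a collagen crosslinking enzyme, had 1 at ranks 86.2 and 83.4, 50.2 kb away and nearest to *CHMP7*. *PLAU*, the urokinase gene, had 1 at 58.2 and 65.2, 49.4 kb away. The *PLAU* region is nearest to *VCL*, at 31.2 kb, and counts again for *VCL* in the focal adhesion list. Of 17 epithelial and ductal genes 5 had a region (29.4%, 13.3 to 53.1). *KRT8* and its neighbour *KRT18* share chr12:52903952-52905202, a weak region at ranks 13.2 and 10.2, inside the listed span of *KRT8*. It covers no listed start, but the table of starts is not complete, so a *KRT8* promoter there cannot be told apart from a distal element. *CLDN4* had 1 at 30.8 and 14, nearest to *METTL27*, and *KRT7* had 2 at 85.0 kb or more, nearest to *KRT80*.

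Integrin, laminin and focal adhesion genes had a region for 7 of 32 (21.9%, 11 to 38.8). *ITGB1*, the integrin beta 1 chain, had 2, the stronger at ranks 53.9 and 70.6, and *BCAR1*, *PXN* and *VCL*, genes of focal adhesion proteins, also had 2 each. A listed start lay in 1 of the *BCAR1* regions, that of *ZFP1* named above, and in 1 of the *VCL* regions. The other *VCL* region is the one given for *PLAU* above. TGF-beta and SMAD genes had a region for 5 of 26 (19.2%, 8.51 to 37.9). *ID1*, a SMAD target, had 3, the nearest 3.76 kb from it, and *SKI*, *SMURF2* and *LTBP2* had 1 each, all 3 at ranks below 25 in both lines.

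*HDAC1*, *HDAC2*, *HDAC3* and their partners had a region for 7 of 25 genes (28.0%, 14.3 to 47.6). *HDAC1* itself had none, and 21 of the 25 had peaks of both lines at an end. *SIN3A*, the scaffold of a deacetylase complex, had chr15:75453346-75453988 inside it at ranks 39.9 and 54.3. This region lies close to the start of the gene (chr15:75455815, minus strand), just beyond the 1 kb that the selection left out. The flank of a promoter there cannot be told apart from a distal element. *GATAD2A*, of the NuRD complex, had 1 inside it at 50.9 and 45.7, over a listed start of the gene. *ZMYM2* had 1 at 83.1 and 86.4, 39.0 kb away and nearest to *GJA3*. The corepressor gene *NCOR1* had 2, at 70.3 kb or more.

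The remaining lists had shares from 10.0% to 21.4%, with intervals that include the 14.6% of all genes. Cell cycle genes had a region for 2 of 20 (10.0%, 2.79 to 30.1), which were *MYC* and the CDK inhibitor gene *CDKN1B*. The *CDKN1B* region, at ranks 95 and 84.4, lay 20.8 kb away and was nearest to *GPR19*. Pancreatic lineage transcription factors had 2 of 20 (10.0%), *RBPJL* and *GATA4*, at regions nearest to *SDC4* and *CTSB*. The acinar and endocrine list had 2 of 16 (95% interval 3.5% to 36.0%), *CTRB1* and *PPY*, the immune list 3 of 14 (21.4%), among them *NKG7* and *ITGAM*, and the hepatocyte, neural and muscle list also 2 of 16, *MBP* and *TNNT2*. None of the 8 genes named here outside the cell cycle list had a peak of either line at an end. The strongest of the regions near them was that of *ZFP1* named above, which lies 70.3 kb from *CTRB1*.

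**Figure D5:**
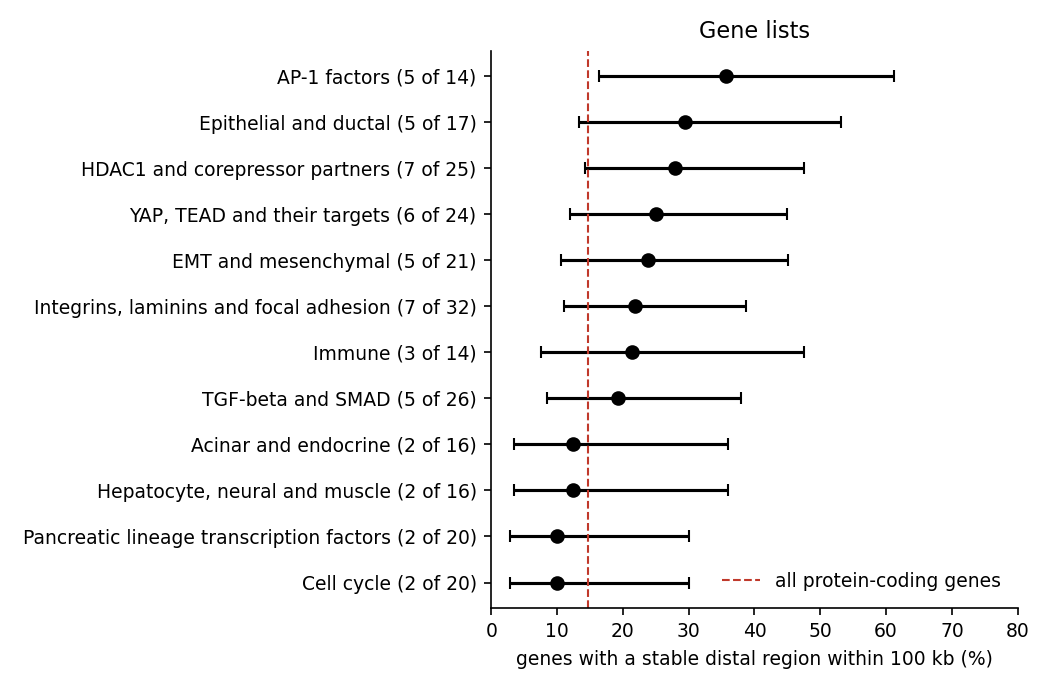
Percent of the genes in each list with a stable distal region within 100 kb (points, 95% Wilson intervals), with the 14.6% of all protein-coding genes as a dashed line. The AP-1 list, at 35.7%, has the highest share, and the intervals of the other lists shown reach the line.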

How the data were processed

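H3K27ac ChIP-sequencing (antibody ab4729) was done in MP2_HDAC1_OE and MP2_NTC with the ENCODE pipeline. Per the labels, reads were aligned to hg38, and the submitters' processing notes name BWA 0.7.12 and Picard 1.88. The peak caller is not given in the sources used here. For each line the authors deposited the optimal set of a reproducibility analysis (IDR) over 2 samples, with 25045 peaks for MP2_HDAC1_OE and 22569 for MP2_NTC. Each deposited peak has a signal value, a score (540 to 1000) and a summit. Scores and signals are the authors' own, pooled over samples, and the depth behind them is unknown. The no-antibody controls have no list of their own.

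Peaks were merged, classed and ranked as the report states. Gene positions came from a RefSeq table (GRCh38.p14, 59792 genes, 20056 protein-coding, 79.0% of these with a listed strand) and starts from a table of RefSeq promoter windows, which is not complete. Shares have 95% Wilson intervals, and medians have 95% intervals from binomial order statistics. No test was run, since each line has a single pooled list. Named genes were those of the 10 strongest regions, the 5 stretches with the most regions (ties by span), up to 4 genes per list with the most regions within 100 kb and 3 regions on each side of the rank limit. Some genes of this rule and 1 gene list are not reported here. The regions and lists were chosen with earlier results of these data known. The alternatives were the overlap, the merging gap, the rank limit, the gene ends, the window, the peak threshold and the regions ranked. Leaving out regions over a listed start was chosen after seeing the data. The classing was tested on simulated data. The software was Python 3.11.15 with scipy 1.17.1, pandas 2.3.3, matplotlib 3.10.9 and numpy 2.4.6.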

Additional observations from a re-analysis of the deposited data

How the results depend on the processing

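No paired analysis was possible because the samples of a line were pooled before the peaks were listed. Leaving out a sample was not run, for that reason. The AP-1 letters were not searched in all regions, since no genome sequence was used. The count of 1193 regions fell to 683 with a limit of 10 points. Keeping the 75% of peaks with the highest signal moved the median summit distance from 93.0 to 78.0 bp, the gene end distance from 18584 to 16503 bp, the share near another stable distal region from 24.6% to 19.3% and the share whose nearest gene had peaks of both lines at an end from 49.0% to 45.5%. Taking ends of protein-coding genes only gave 81.0 bp between summits and 48.4% of regions in protein-coding genes, against 53.8%. Summit distance was 119 bp with gaps of 500 bp merged and 82.0 bp with an overlap of 50%. The gene end distance was 28727 bp with windows of 5 kb either side and 9573 bp to any gene, and without regions over a listed start it was 20750 bp, with 45.0% of regions in protein-coding genes. The share near another stable distal region was 28.2% with windows of 5 kb, 30.8% within 25 kb, 17.9% within 5 kb, 16.7% and 31.8% with limits of 10 and 30 points, and 28.1% with ranks over shared regions. Each of these settings changes which regions or distances enter, and no cause beyond that was tested. Intervals cover counting error only, since the read depth is unknown.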
